A study of Mus musculus with 30 samples.

Results

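Collagen and laminin genes encode the chains of the most abundant matrix proteins around animal cells. They were taken here as every row of the normalised count table whose symbol is Col, a number, a and a number, or Lam, one of a, b or c and a number. The rule found 53 genes, 42 for collagen chains and 11 for laminin chains, among 20563 genes in all. The rule reads only the symbols. Of the 53, 47 reached a normalised count of at least 10 in at least 2 libraries and were tested, 36 collagen and all 11 laminin genes.

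The study sequenced total RNA from 5 lines of mouse cells at 3 points of differentiation, with 2 libraries for each of 15 groups, 30 in all. Embryonic stem cells, which are undifferentiated cells of the early embryo kept in culture, were grown on gelatin with LIF (day 0). Without LIF and on plates to which they cannot attach, the cells form embryoid bodies, aggregates in which they differentiate, and these were collected at day 4 and day 8. One set of lines is Pali WT (wild type), Pali1-/- and Pali1-/- Pali2-/-. The other is C129 WT (wild type) and Aebp2gt/gt, which carries a gene trap on both copies of Aebp2. PALI1 and PALI2 (products of the loci Lcor and Lcorl) are, like AEBP2, proteins that bind Polycomb repressive complex 2, an enzyme that methylates histone H3 and takes part in gene silencing. The lines are called below Pali wild type, Pali1 knockout, double knockout, C129 wild type and Aebp2 gene trap. Both Pali mutants were compared with the Pali wild type, so these comparisons share their control libraries, and the Aebp2 gene trap was compared with the C129 wild type, a pairing read from the order in which the series lists its lines. The labels call the 2 libraries of a group biological duplicates. The sources used here do not give how many clones each line stands for.

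Collagens are trimers of alpha chains wound into a triple helix. Type IV collagen forms the sheet-like network of basement membranes, the thin layers of matrix under epithelia, while types I, II, III, V and XI assemble into fibrils. Laminins are trimers of 1 alpha, 1 beta and 1 gamma chain, and laminin-111, made of the products of Lama1, Lamb1 and Lamc1, is the main laminin of the first basement membranes of the mouse embryo. The COL4A1 and COL4A2 chains join in a single trimer, and in embryoid bodies a basement membrane is laid down between the outer endoderm and the cells inside.

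Estimated depth ran from 13198293 to 28151934 reads per library, and 12142 to 13390 genes reached a normalised count of 10. In the Aebp2 gene trap libraries Aebp2 itself lay between 17.1 and 66.4 normalised counts, against 1312 to 2784 in the C129 wild type. Lcor and Lcorl overlapped between the Pali lines (for Lcor, medians of 85.0 in the wild type, 98.3 in the Pali1 knockout and 78.3 in the double knockout), so these gene totals do not check the Pali labels. Summed normalised counts of 7 markers of undifferentiated cells were 58679 to 95756 at day 0 and 15029 to 47774 at day 8, with no overlap. In 2 double knockout libraries, day 0 replicate 1 and day 4 replicate 1, the description names the other culture state, and the title was followed. The second Pali wild type library stood apart at day 4 and day 8. Its summed counts of 16 markers of primitive, parietal and visceral endoderm were 5216 and 13626, against 317 and 736 in its duplicates.

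An exact 0 in the table need not mean absence: 31 of the 53 members are listed at 0 in at least 1 library, and Col7a1, for example, has 0 and 56.6 in the duplicates of the Pali wild type at day 0. Where both libraries of a group are listed at 0, no fold is given below. Between duplicates, Col4a5, Col22a1 and Col7a1 differed by more than 8-fold with the higher at 100 or more in at least 1 group. In these bulk libraries fewer cells of a type and less RNA per cell cannot be told apart. Differences are given on the scale of log2 of the normalised count plus 4, with the standard error and the adjusted p of limma, which used all 30 libraries. A gene was called when that p was under 0.05.

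The members were used unevenly. There were 14 members at 10 or more in every library and 11 that passed 1000 in at least 1. Another 17 never passed 50.

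**Figure D1:**
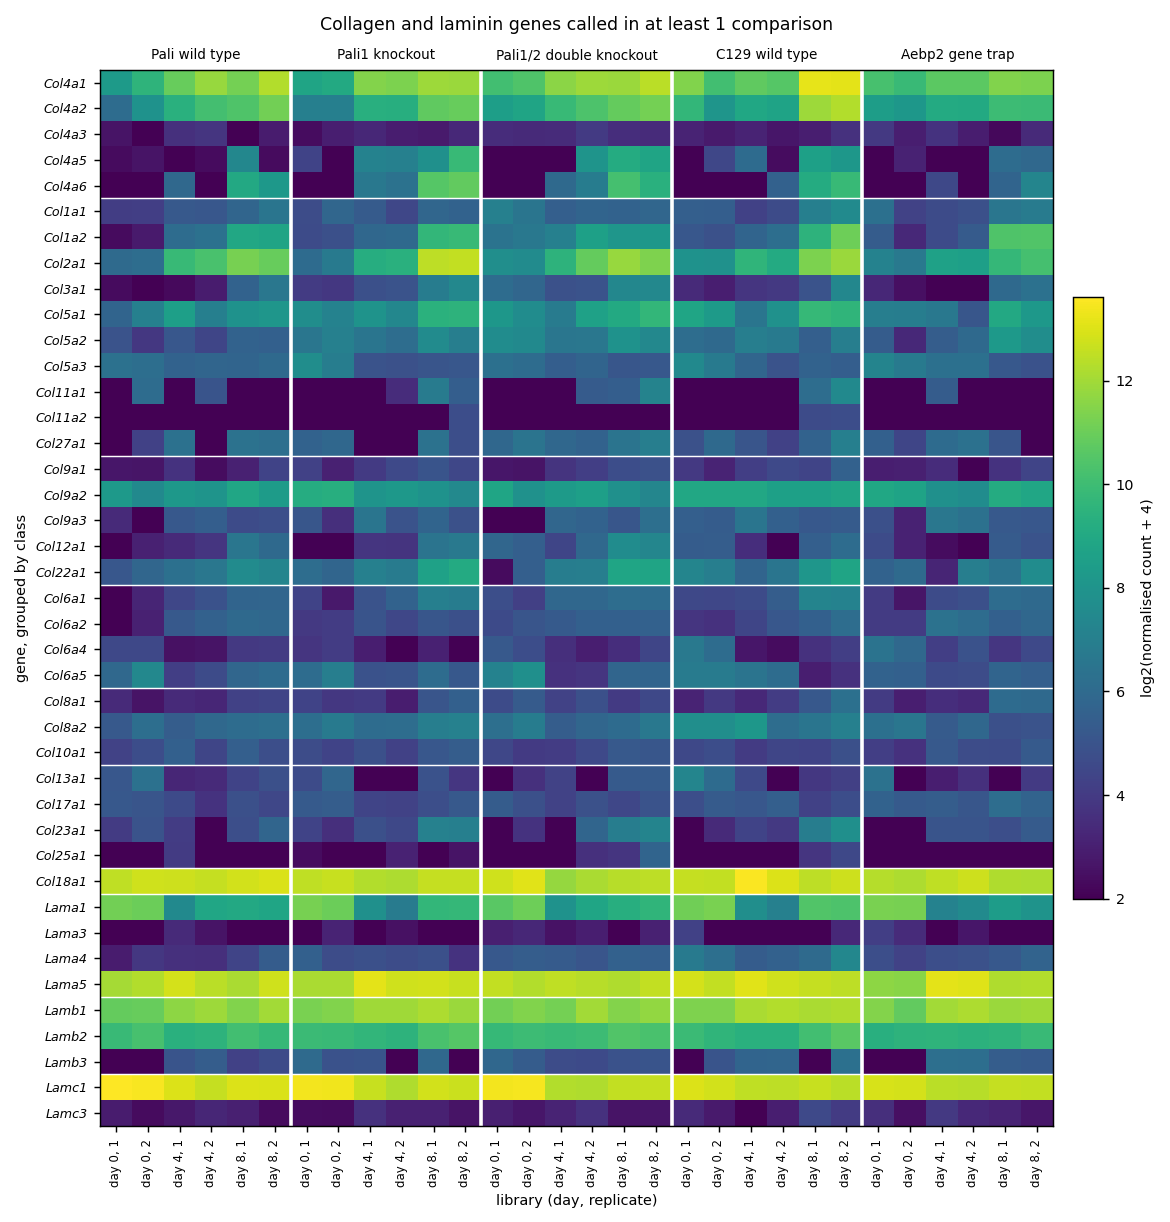
Level in the 30 libraries of the 41 members called in at least 1 of the comparisons between days or between a mutant and its wild type, as log2 of the normalised count plus 4 (colour), with genes grouped by chain class in rows and libraries grouped by line and day in columns. The laminin genes Lama5, Lamb1, Lamb2 and Lamc1 and the collagen gene Col18a1 are high throughout, Lama1 is high at day 0, and a block of type IV, fibrillar and type VI genes is higher at day 8 than at day 0 in each line.

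In all, 6 of the 53 members stayed under the filter. The 3 chains Col4a3, Col4a4 and Col4a5 form the type IV network of kidney glomeruli: Col4a4, not tested, did not pass 10.1 normalised counts and Col4a3, tested, did not pass 11.7. The other members not tested were Col19a1, Col6a6, Col15a1, Col26a1 and Col28a1, whose highest values were 9.05, 7.65, 6.79, 8.13 and 8.47.

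By day 8 more members had risen than fallen in every line. The members that rose were mostly collagens, as are 36 of the 47 tested. In the Pali wild type 14 members rose and 2 fell, where 14% of all tested genes rose and 11.7% fell. The Pali1 knockout had 18 up and 5 down, against 22% and 20.1% of all tested genes. The double knockout had 16 and 6, against 16.7% and 14.2%. Counts for the C129 wild type were 18 and 4, against 23.4% and 22.4%. In the Aebp2 gene trap 15 rose and 5 fell, against 16.3% and 14.9%. The median change of the 47 members was 0.80, 0.52, 0.49, 0.62 and 0.63 in these lines in turn, and that of all tested genes 0.02 to 0.04. Of the 36 tested collagens 12 to 15 rose in each line and 0 to 4 fell. Of the 11 laminins 1 to 3 rose and 1 or 2 fell. In all, 7 members rose in all 5 lines: Col4a1, Col4a2, Col4a6, Col1a2, Col2a1, Col3a1 and Col6a1. No member fell in all 5, and Lama1, Lamc1 and Col5a3 each fell in 4. The counts shrank when 1 library was left out, so that 1 duplicate was assumed to vary like the other groups. The Pali1 knockout count went from 23 to 12 without its day 0 replicate 2. The double knockout count went from 22 to 13 without day 0 replicate 2 or day 8 replicate 2, and to 14 without day 8 replicate 1. The Aebp2 gene trap count went from 20 to 12 without day 0 replicate 2 and to 10 without day 8 replicate 2. Of the 16, 23, 22, 22 and 20 calls, 11, 11, 9, 15 and 10 held in every such fit.

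At day 4 the picture was more mixed. In the Pali wild type 9 members had risen and 6 fallen, where 14.7% of all tested genes rose and 12.7% fell. In the Pali1 knockout 7 rose and 9 fell (background 15.2% and 15.3%), and in the double knockout 7 rose and 5 fell (13.6% and 13.9%). In the C129 wild type 4 rose and 6 fell (14% and 15%), and in the Aebp2 gene trap 9 rose and 5 fell (15.7% and 15%). Only Col2a1 rose in all 5 lines at day 4, and Lama1, Lamc1 and Col6a4 fell in all 5. The count moved by over 1.5 times without some libraries. It went from 16 to 9 in the Pali1 knockout without day 0 replicate 2 and to 10 without day 4 replicate 1. In the double knockout it went from 12 to 7 without day 0 replicate 1 and to 6 without day 4 replicate 2. In the C129 wild type it went from 10 to 6 without day 0 replicate 1 or day 4 replicate 2. In the Aebp2 gene trap it went from 14 to 9 without day 0 replicate 2 or day 4 replicate 2, and to 8 without day 4 replicate 1.

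The type IV chain genes lie in head-to-head pairs, so their shared promoter regions are shown first. In the GENCODE M21 annotation of GRCm38, Col4a1 spans chr8:11198423-11312826 on the minus strand and Col4a2 spans chr8:11312805-11449287 on the plus strand. Their annotated start sites lie 21 bases apart, and the 2 genes overlap there. Col4a6, at chrX:141165403-141474076 on the minus strand, and Col4a5, at chrX:141475385-141689234 on the plus strand, start 1309 bases apart. The windows below run from 250 bases before to 50 bases after the RefSeq start of each gene (GRCm38.p6), read 5′ to 3′ on the strand of that gene. They lie at chr8:11312777-11313076 for Col4a1, chr8:11312555-11312854 for Col4a2, chrX:141474027-141474326 for Col4a6 and chrX:141475169-141475468 for Col4a5. Capitals mark CCAAT and also GGGCGG or TATAAA on either strand, with overlapping matches merged.
Col4a1: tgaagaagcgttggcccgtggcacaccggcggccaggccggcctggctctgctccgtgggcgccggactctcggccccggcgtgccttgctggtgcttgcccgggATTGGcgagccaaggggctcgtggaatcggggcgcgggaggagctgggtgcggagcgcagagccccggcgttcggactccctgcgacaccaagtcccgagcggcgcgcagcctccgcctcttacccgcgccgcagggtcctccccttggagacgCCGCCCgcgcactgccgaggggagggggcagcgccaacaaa
Col4a2: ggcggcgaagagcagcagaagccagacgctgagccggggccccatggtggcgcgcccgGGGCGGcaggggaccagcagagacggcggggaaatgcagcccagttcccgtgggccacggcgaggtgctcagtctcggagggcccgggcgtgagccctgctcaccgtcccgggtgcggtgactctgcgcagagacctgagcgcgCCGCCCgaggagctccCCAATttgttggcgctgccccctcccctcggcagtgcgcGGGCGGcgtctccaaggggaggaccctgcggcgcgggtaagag
Col4a6: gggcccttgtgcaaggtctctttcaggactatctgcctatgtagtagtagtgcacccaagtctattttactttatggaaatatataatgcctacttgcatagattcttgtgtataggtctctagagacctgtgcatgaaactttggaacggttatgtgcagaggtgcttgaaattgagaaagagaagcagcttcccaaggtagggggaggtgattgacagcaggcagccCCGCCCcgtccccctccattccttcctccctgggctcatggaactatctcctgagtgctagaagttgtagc
Col4a5: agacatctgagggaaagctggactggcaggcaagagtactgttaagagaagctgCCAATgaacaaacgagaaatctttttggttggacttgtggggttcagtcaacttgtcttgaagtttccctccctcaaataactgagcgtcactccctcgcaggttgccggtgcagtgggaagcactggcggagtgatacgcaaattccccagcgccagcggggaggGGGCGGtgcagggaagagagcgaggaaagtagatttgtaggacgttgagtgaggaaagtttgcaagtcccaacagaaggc
The Col4a1 window holds 1 CCAAT and 1 GGGCGG, and that of Col4a2 holds 1 and 3. These 2 windows overlap, and the GGGCGG of Col4a1 is the last of the 3 of Col4a2, read on the other strand. The Col4a6 window holds 1 GGGCGG and no CCAAT, and that of Col4a5 holds 1 of each. None of the 4 holds TATAAA. Of 32851 RefSeq promoter windows of this length 37.4% hold CCAAT, 35.7% GGGCGG and 13.6% TATAAA, and of the 42 windows of the 38 members with an entry, 13, 25 and 5 do. The first pair is rich in G and C, at 74.0% and 73.7%, and the second is not, at 48.3% and 52.7%, beside a median of 52.7% over all windows. These are matches of letters, not sites shown to be bound.

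Col4a1 encodes the alpha-1 chain of type IV collagen, 2 copies of which join 1 alpha-2 chain. Its normalised counts in the Pali wild type were 317 and 744 at day 0, 1925 and 3587 at day 4, and 2300 and 4953 at day 8. In the Pali1 knockout they were 433 and 522, then 2780 and 2580, then 3908 and 3749. The double knockout had 1103 and 1371, then 3146 and 3833, then 3751 and 5486. Day 0 and day 8 did not overlap in any of these 3 lines. The C129 wild type had 2726 and 1081 at day 0, 1751 and 1490 at day 4, and 9278 and 9107 at day 8, the highest of any line. The Aebp2 gene trap had 1189 and 945, then 1629 and 1661, then 2705 and 2546. So Col4a1 was up by day 4 in the 3 Pali lines, while the C129 wild type stayed within its day 0 values at day 4 and was several times higher at day 8.

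The day 8 rise of Col4a1 over day 0 was 2.79 in the Pali wild type (SE 0.421, adjusted p = 0.000114 by limma), 3.00 in the Pali1 knockout (2.02e-05), 1.88 in the double knockout (0.00245), 2.42 in the C129 wild type (0.000136) and 1.30 in the Aebp2 gene trap (0.0249), with the same error. The Aebp2 gene trap call was lost without its day 0 replicate 2 (adjusted p = 0.141), day 8 replicate 1 (0.0987) or day 8 replicate 2 (0.0835). At day 4 the rise was 2.43 in the Pali wild type, 2.48 in the Pali1 knockout and 1.49 in the double knockout (adjusted p = 0.0131 by limma). The last was lost without day 0 replicate 1 (0.0973) or day 4 replicate 2 (0.0873). Without the Pali wild type libraries high in endoderm markers the rise was 1.98 at day 4 (adjusted p = 0.00908 by limma) and 2.23 at day 8 (0.00401).

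Col4a2, the alpha-2 chain, moved alongside. Its counts in the Pali wild type were 65.8 and 241 at day 0, 670 and 1123 at day 4, and 1350 and 2275 at day 8. The C129 wild type had 813 and 266, then 485 and 424, then 3901 and 5003. The Aebp2 gene trap had 346 and 284, then 548 and 529, then 1009 and 966, the lowest day 8 pair of the 5 lines. The day 8 rise was 3.75, 3.83, 2.38, 3.24 and 1.64 from the Pali wild type to the Aebp2 gene trap (SE 0.479, adjusted p = 2.24e-05, 5.99e-06, 0.00105, 2.49e-05 and 0.0138 by limma). The last was lost without day 0 replicate 2 (0.0882), day 8 replicate 1 (0.0628) or day 8 replicate 2 (0.0585). Without the second Pali wild type library at day 8 the rise there was 3.37 (adjusted p = 0.000847 by limma), and without that at day 4 the day 4 rise was 2.36 (0.00813).

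Per kilobase of transcript, the 2 chains did not keep a fixed ratio. The Col4a2 to Col4a1 ratio was 0.213 to 0.336 over the 10 libraries of day 0 (median 0.303), 0.238 to 0.360 at day 4 (0.309) and 0.383 to 0.602 at day 8 (0.468). Every day 8 library lay above every library of the earlier days.

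Col4a6, whose product forms a network with that of Col4a5 in some epithelial and smooth muscle basement membranes, went from a listed 0 to a clear signal. It is listed at 0 in all 10 libraries of day 0. At day 4 it was 0 to 114, with 3 libraries at 0. At day 8 it was 517 and 291 in the Pali wild type, 1523 and 1791 in the Pali1 knockout and 1161 and 663 in the double knockout. The C129 wild type had 570 and 920 and the Aebp2 gene trap 49.4 and 150. Col4a6 was called higher at day 8 in all 5 lines, a call lost in the Aebp2 gene trap without day 8 replicate 2 (adjusted p = 0.0562 by limma). Its neighbour Col4a5 was called higher at day 8 in the Pali1 knockout, the double knockout and the C129 wild type, with duplicates that disagreed, for example 226 and 895 in the Pali1 knockout and 163 and 1.10 in the Pali wild type. The Pali1 knockout call was lost without replicate 2 of either day (adjusted p = 0.102 and 0.0934 by limma), and that of the C129 wild type without any library but day 0 replicate 2 (0.0537 to 0.144). Col4a5 was 64.2 and 57.7 in the Aebp2 gene trap, the line lowest in Col4a6 at day 8.

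**Figure D2:**
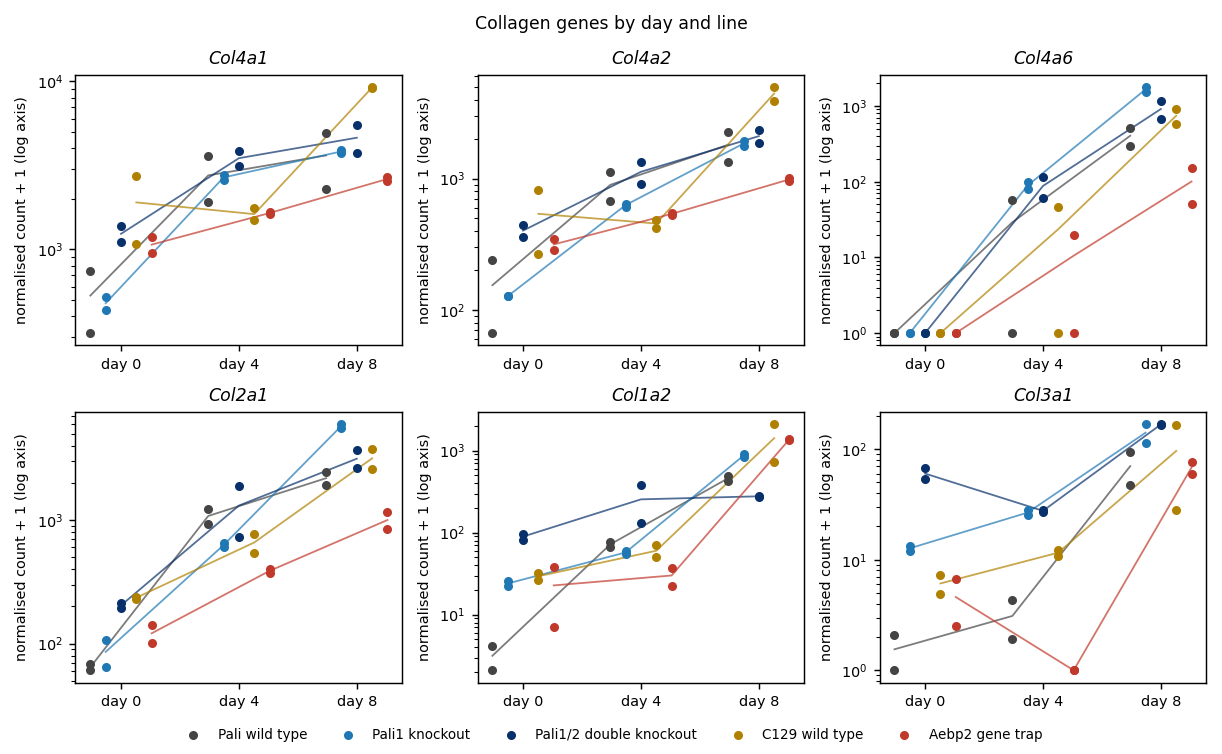
Normalised count plus 1, on a log axis, against day for Col4a1, Col4a2, Col4a6, Col2a1, Col1a2 and Col3a1; points are libraries, lines join the means of the 2 libraries of a group, and colours are the 5 lines. All 6 genes are higher at day 8 than at day 0 in each line, Col4a6 starting from a listed 0, and the double knockout starts above the Pali wild type for Col1a2 and Col3a1.

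Among the laminins, Lama1 was far lower at day 4 than at day 0 in every line. It encodes the alpha chain of laminin-111. Its normalised counts at day 0 were 2254 and 2085 in the Pali wild type, 2400 and 2038 in the Pali1 knockout, 1607 and 2133 in the double knockout, 2195 and 2447 in the C129 wild type and 2466 and 2389 in the Aebp2 gene trap. At day 4 no library was above 472 and the lowest was 110. At day 8 they were 518 and 451, 832 and 840, 615 and 779, 1394 and 1328, and 335 and 246 in the same order of lines. The mean of Lama1 was thus lowest at day 4 in every line, though days 4 and 8 overlapped in the Pali wild type, and at day 8 it was highest in the C129 wild type and lowest in the Aebp2 gene trap. The change from day 4 to day 8 was not tested.

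The fall of Lama1 at day 4 was called in every line and in every fit that left out 1 library, by -2.89, -3.77, -2.49, -3.77 and -3.90 (SE 0.385, adjusted p = 2.57e-05, 1.37e-06, 0.000123, 1.62e-06 and 7.55e-07 by limma) from the Pali wild type to the Aebp2 gene trap. At day 8 it was -2.16 in the Pali wild type (adjusted p = 0.000516 by limma), -1.40 in the Pali1 knockout (0.00702), -1.41 in the double knockout (0.00935) and -3.06 in the Aebp2 gene trap (1.27e-05). The value in the C129 wild type was -0.77 and was not called (0.116). The day 8 call was lost in the Pali1 knockout without day 0 replicate 1 (0.0504), and in the double knockout without day 0 replicate 2 (0.0763) or day 8 replicate 1 (0.0759).

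Lama5, the alpha chain of laminin-511 and laminin-521, on which stem cells adhere well, was not called lower in any line. Its counts were 3049 to 7370 over the libraries of day 0, 5374 to 9056 at day 4 and 4468 to 7177 at day 8, so the days overlap. It rose at day 4 in the Aebp2 gene trap, from 3226 and 3049 to 8947 and 8584 (1.48, SE 0.194, adjusted p = 1.55e-05 by limma), and in the Pali1 knockout (0.82, 0.00361, lost without day 4 replicate 1 at 0.0651). At day 8 it was called higher in the same 2 lines, by 0.63 in the Aebp2 gene trap (adjusted p = 0.0186 by limma), lost when any 1 of its 4 libraries was left out (0.052 to 0.0983), and by 0.58 in the Pali1 knockout (0.0232), lost without either day 0 library (0.0788 and 0.0846) or day 8 replicate 1 (0.132). Per kilobase, Lama1 stood at 0.323 to 0.937 of Lama5 at day 0 (median 0.524), at 0.0183 to 0.105 at day 4 (0.0286) and at 0.0597 to 0.278 at day 8 (0.145). The day 0 ratios lie above all others.

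Lamb1 and Lamc1, the beta and gamma chains shared by laminin-111 and laminin-511, moved in opposite directions. Lamc1 was 12574 and 11791 in the Pali wild type at day 0, 8101 and 6144 at day 4 and 8136 and 8054 at day 8. In the double knockout it was 10762 and 11142, then 4979 and 4871, then 5978 and 6236. In the Aebp2 gene trap it was 7829 and 7372, then 5520 and 5324, then 6181 and 5971. Lamc1 fell at day 4 in all 5 lines, by -0.79, -0.95, -1.15, -0.42 and -0.49 (SE 0.122), and at day 8 in the 4 others than the Aebp2 gene trap. In the C129 wild type the call of day 4 (adjusted p = 0.0135 by limma) was lost without day 0 replicate 1 (0.137) or day 4 replicate 2 (0.0879), and that of day 8 (0.0149) without day 0 replicate 1 (0.138) or day 8 replicate 2 (0.166).

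Lamb1 ran from 1801 to 2838 over the day 0 libraries, from 2363 to 4947 at day 4 and from 2745 to 4872 at day 8. It was called higher in 7 of the 10 line and day comparisons, by 0.67 to 0.95 (SE 0.233). In the C129 wild type at day 8 it went from 2626 and 2646 to 4569 and 4872, and this call (0.84, adjusted p = 0.00677 by limma) was the one of the 7 that held whichever library was left out. In the Pali wild type the calls of day 4 and day 8 were lost without the library high in endoderm markers (0.74, adjusted p = 0.0789, and 0.51, 0.213, by limma). They were lost too without day 0 replicate 1 (0.052 at day 4, 0.0811 at day 8) and, for day 8, without day 0 replicate 2 (0.0652). The Lamb1 to Lamc1 ratio per kilobase went from 0.199 to 0.484 at day 0 (median 0.324) to 0.523 to 1.17 at day 4 (1.00) and 0.445 to 1.18 at day 8 (0.770). Day 0 and day 4 did not overlap.

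**Figure D3:**
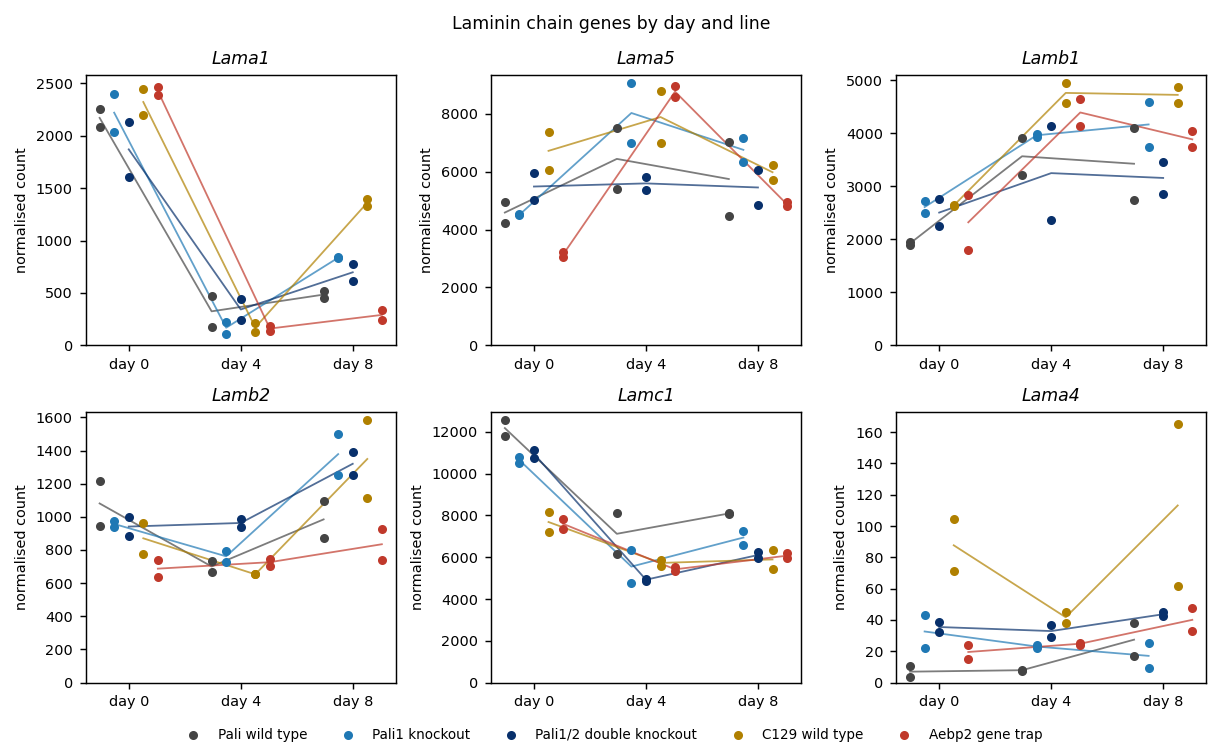
Normalised count against day on linear axes that start at 0 for Lama1, Lama5, Lamb1, Lamb2, Lamc1 and Lama4; points are libraries, lines join the means of the 2 libraries of a group, and colours are the 5 lines. Lama1 drops to 472 or less at day 4 in every library, a drop that Lama5 and Lamb1 do not show.

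**Figure D4:**
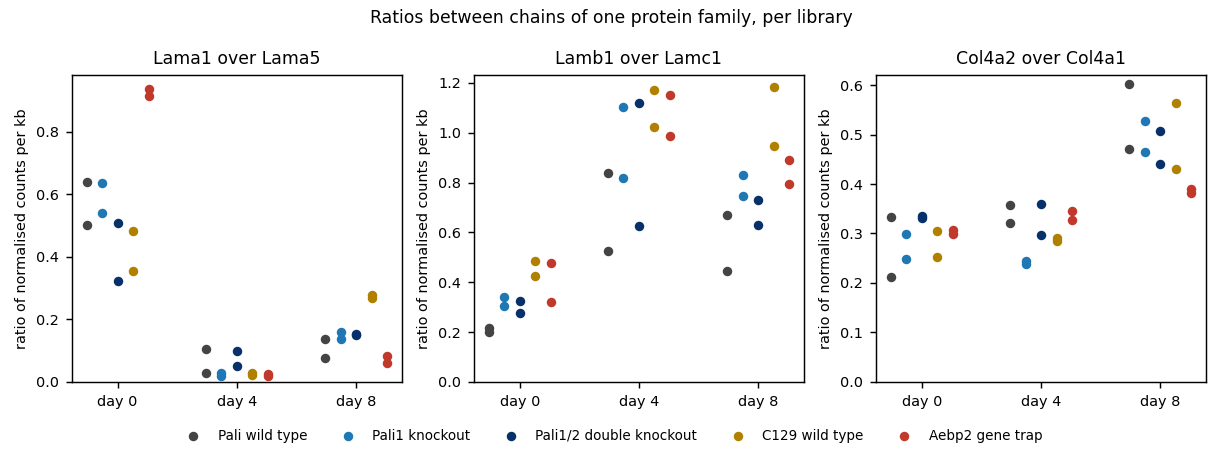
Ratio of normalised counts per kilobase of transcript against day for Lama1 to Lama5, Lamb1 to Lamc1 and Col4a2 to Col4a1, with 1 point per library and colours for the 5 lines. Lama1 to Lama5 is highest at day 0 (0.323 to 0.937) and lowest at day 4, and Col4a2 to Col4a1 is highest at day 8 (0.383 to 0.602).

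The other laminin chains were scarce. Lamb2, the beta chain of laminin-521, was the exception, at 638 to 1586 over all libraries. It was called higher at day 8 in the Pali1 knockout (0.52, SE 0.17, adjusted p = 0.0199 by limma), the double knockout (0.49, 0.0365) and the C129 wild type (0.62, 0.00624), and lower at day 4 in the Pali wild type (-0.61, 0.0114). None of these 4 calls held when each library was left out in turn, with adjusted p of up to 0.169, 0.208, 0.144 and 0.147 by limma. The Pali1 knockout call was lost without any library but day 8 replicate 1, that of the double knockout when any 1 of its 4 libraries was left out, that of the C129 wild type without replicate 2 of either day, and that of the Pali wild type without day 0 replicate 2 or day 4 replicate 1. Lama4, the alpha chain of blood vessel laminins, was 3.29 to 165, and Lamb3, a chain of the laminin under skin epithelium, did not pass 73.9. Lama2, Lama3 and Lamc3 did not pass 16.3, 15.1 and 19.8.

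The fibrillar collagens were led by Col2a1, the chain of cartilage and notochord collagen. Its normalised counts in the Pali wild type were 59.7 and 67.0 at day 0, 920 and 1233 at day 4, and 2429 and 1928 at day 8. In the Pali1 knockout they were 63.8 and 106, then 598 and 652, then 5581 and 5972, the highest in the study. The Aebp2 gene trap had 140 and 100, then 402 and 370, then 846 and 1151. The 3 days did not overlap in any of these lines. Col2a1 rose at both days in all 5 lines and in every fit that left out 1 library. At day 8 the rise was 5.01 in the Pali wild type (SE 0.344, adjusted p = 3.93e-08 by limma), 6.07 in the Pali1 knockout (2.06e-09), 3.91 in the double knockout (4.59e-07), 3.71 in the C129 wild type (1.36e-07) and 3.02 in the Aebp2 gene trap (4.74e-06).

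Type I collagen, the main collagen of skin, bone and tendon, joins 2 chains of Col1a1 with 1 of Col1a2, and here Col1a2 moved more. Col1a2 was 1.10 and 3.21 in the Pali wild type at day 0, 65.3 and 76.8 at day 4, and 490 and 431 at day 8. The double knockout had 81.1 and 96.0, then 128.8 and 379, then 274 and 280. C129 wild type values were 31.5 and 25.4, then 49.3 and 69.2, then 728 and 2112. Duplicates differed widely in some groups, yet in all 5 lines every day 8 library lay above every day 0 library. The day 8 rise was 6.26 in the Pali wild type (SE 0.548, adjusted p = 4.16e-07 by limma), 5.02 in the Pali1 knockout (1.33e-06), 5.27 in the C129 wild type (4.7e-07) and 6.08 in the Aebp2 gene trap (3.82e-07). In the double knockout it was 1.61 (0.0333), lost when any 1 of its 4 libraries was left out (0.0809 to 0.149).

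Col1a1 stayed between 13.2 and 186 normalised counts. It was called higher at day 8 in the Pali wild type (from 13.2 and 13.9 to 51.2 and 86.7), the C129 wild type (from 41.5 and 40.4 to 125 and 186) and the Aebp2 gene trap (from 73.5 and 15.4 to 91.7 and 110), by 2.01, 1.80 and 1.43. Each call was lost without 1 library or more: without day 8 replicate 2 in the Pali wild type (adjusted p = 0.0692 by limma) and in the C129 wild type (0.0624), and in the Aebp2 gene trap without day 0 replicate 2 (0.562) or either day 8 library (0.0798 and 0.154). Per kilobase, Col1a2 was 0.0924 to 1.22 of Col1a1 at day 0, 1.11 to 8.44 at day 4 and 5.52 to 22.1 at day 8. The trimer holds fewer chains of Col1a2 than of Col1a1, but these are ratios of RNA signal, and protein chains were not measured.

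Col3a1, the chain of reticular fibres in soft tissue, was 0 to 65.9 at day 0, 0 to 27.4 at day 4 and 27.4 to 167 at day 8. It was called higher at day 8 in all 5 lines, by 3.94, 3.17, 1.44, 3.01 and 3.27 (SE 0.528). The value of the double knockout (from 65.9 and 52.3 to 165 and 167, adjusted p = 0.0464 by limma) was lost when any 1 of its 4 libraries was left out (0.103 to 0.18). Col5a1, a chain of the type V collagen that starts fibrils, reached 238 to 882 at day 8 and was called in the Pali1 knockout (2.05, adjusted p = 0.0154 by limma), a call lost without day 0 replicate 2 (0.0991) or either day 8 library (0.0544 and 0.0689). Col5a3, a minor type V chain, went the other way. It fell at day 8 in the Pali1 knockout, from 206 and 118 to 29.4 and 31.5 (-2.21, SE 0.297, adjusted p = 1.17e-05 by limma), and in the double knockout, the C129 wild type and the Aebp2 gene trap (-1.07, -1.59 and -1.95). The double knockout call was lost without day 0 replicate 1 (0.0738) or day 8 replicate 1 (0.0621). The Pali wild type went from 75.6 and 70.5 to 50.2 and 58.9 and was not called.

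Type VI collagen forms beaded filaments beside basement membranes from chains alpha-1, alpha-2 and a further chain that can be encoded by Col6a3, Col6a4, Col6a5 or Col6a6. Col6a1 was 0 to 23.3 at day 0 and 49.2 to 149 at day 8, with no overlap. It rose at day 8 in all 5 lines, by 3.15, 3.38, 1.65, 2.71 and 2.69 (SE 0.493). In the double knockout the call (adjusted p = 0.0163 by limma) was lost without day 0 replicate 2 (0.118), day 8 replicate 1 (0.0711) or day 8 replicate 2 (0.0661). Col6a2 was 0 to 29.4 at day 0 and 24.4 to 66.3 at day 8. It rose at day 8 in 4 lines, by 3.40 in the Pali wild type, 0.96 in the Pali1 knockout, 2.12 in the C129 wild type and 1.70 in the Aebp2 gene trap (SE 0.341). The Pali1 knockout call (adjusted p = 0.0301 by limma) was lost when any 1 of its 4 libraries was left out (0.0588 to 0.149).

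Of these further chains, Col6a4 and Col6a5 fell in 8 and 5 of the 10 line and day comparisons and rose in none. Col6a5 was 57.0 and 170 in the Pali wild type at day 0, 13.6 and 20.9 at day 4, and 53.2 and 63.3 at day 8. The C129 wild type had 109 and 111.4, then 83.7 and 65.4, then 3.78 and 8.73. The C129 wild type had its lowest values at day 8, whereas the 3 Pali lines had theirs at day 4. The fall at day 8 was -3.52 in the C129 wild type (SE 0.418, adjusted p = 1.97e-06 by limma) and -1.70 in the double knockout (0.00453, and 0.0573 without its day 0 replicate 2). Col6a4 fell at day 4 in all 5 lines, from 99.4 and 65.1 to 2.46 and 1.26 in the C129 wild type, the line that started highest. In the Pali wild type it went from 18.6 and 19.2 to 1.81 and 2.20, and in the Pali1 knockout from 9.92 and 12.9 to 3.87 and 0. Its day 4 values were under 10 in every line but the Aebp2 gene trap, so the size of these falls is uncertain. The calls in the C129 and Pali wild types held whichever library was left out. In the Pali1 knockout (adjusted p up to 0.212 by limma), the double knockout (0.0821) and the Aebp2 gene trap (0.119) 2 or 3 of the 4 such fits lost it, among them the fit without day 0 replicate 1 in each.

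Col18a1, the chain of a basement membrane collagen whose end is released as endostatin, ran from 3460 to 11885 over all libraries. It fell in the double knockout at day 4, from 7130 and 8695 to 3460 and 4549 (-0.99, SE 0.156, adjusted p = 0.000136 by limma). It was called at day 8 in that line as well (-0.52, 0.0156), lost without day 0 replicate 2 (0.156) or day 8 replicate 1 (0.0996). In the C129 wild type it was called higher at day 4 (0.70, 0.00234), where its duplicates were 11885 and 8184, and the call was lost without the first of them (0.0617). Summed over all 42 collagens the normalised counts were 6996 to 12415 at day 0 and 12789 to 31457 at day 8, with no overlap, and summed over the 11 laminins 15378 to 22234 and 15771 to 21241.

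Other genes of matrix assembly and turnover, from 4 lists, moved both ways. Their median changes at day 8 stand beside 0.02 to 0.04 for all tested genes. Their counts stand beside the 14% to 23.4% of all tested genes that rose and the 11.7% to 22.4% that fell at day 8 over the lines. Of 17 tested basement membrane and matrix partners 6 to 9 rose at day 8 in each line and 1 to 4 fell, with medians of 0.27 to 0.66. Nid1, which encodes nidogen, the linker of laminin and type IV collagen, fell at both days in all 5 lines, by -3.04 to -0.95, and Fbn2, a chain of microfibrils, rose at day 8 in all 5. Of 28 collagen processing genes 6 to 8 rose and 5 to 7 fell at day 8 (medians of 0.02 to 0.18). Serpinh1, the chaperone of collagen folding in the endoplasmic reticulum, rose in all 10 line and day comparisons (1.03 to 2.97). Crtap, part of the collagen prolyl 3-hydroxylation complex, and Pcolce and Pcolce2, which enhance cleavage of procollagen, fell in all 10, Pcolce by -3.52 to -2.47. Of 18 matrix receptors 3 to 5 rose and 3 to 5 fell at day 8 (medians of -0.16 to 0.17). Mrc2, an endocytic receptor that takes up collagen, rose in all 10 (2.36 to 4.38). Of 11 matrix degrading enzymes and their inhibitors 5 to 7 rose and 1 to 3 fell (medians of 0.10 to 1.69). Mmp2 and Mmp15, which cut matrix, and the inhibitors Timp2 and Timp3 rose in all 10, while the inhibitor Timp1 fell in all 10.

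Cell type markers moved in the same libraries. Their counts stand beside the same shares of all tested genes, 14% to 23.4% higher and 11.7% to 22.4% lower at day 8. At day 8, 4 to 9 of 16 endoderm markers rose in each line and 0 to 2 fell, and their sum was 736 to 13626 against 185 to 759 at day 0. Of 10 tested fibroblast and mesenchyme markers 4 to 7 rose and 0 or 1 fell. Their sum did not follow these counts in every line. It was higher at day 8 than at day 0 in each Pali line and overlapped between these days in the C129 wild type. In the Aebp2 gene trap it was lower, at 3446 and 4659 against 7391 and 10698. Acta2, Tagln, Postn and Prrx1 were each called higher at day 8 in 4 lines, and Vim was called higher in 1 and lower in 1. Dcn and Lum, which mark mature fibroblasts, did not pass 133 and 27. Dcn was still called higher at day 4 in all 5 lines and at day 8 in 3. Of 8 neural progenitor markers 3 to 7 rose and none fell, of 7 markers of undifferentiated cells none rose and 6 or 7 fell, and of 7 tested endothelium markers 1 to 3 rose and 0 to 3 fell. The median changes of these 5 lists ran from 0.92 to 3.28, 0.93 to 2.57, 0.25 to 3.04, -2.52 to -0.79 and -0.72 to 1.00 over the lines. Their part in the collagen and laminin values was not tested.

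Between the mutants and their wild types fewer members differed. The double knockout stood out at day 0: 10 members were higher than in the Pali wild type and none lower, where 2.95% of all tested genes were higher and 0.719% lower, and the median difference of the members was 0.47 beside 0.01 for all genes. They were the fibrillar Col1a1, Col1a2, Col2a1, Col3a1 and Col5a2, the type VI chains Col6a1 and Col6a2, and Col12a1, Col8a1 and Lama4. Col1a2 was 81.1 and 96.0 in the double knockout and 1.10 and 3.21 in the wild type (3.93, SE 0.548, adjusted p = 0.000455 by limma). Col3a1 was 65.9 and 52.3 against 1.10 and 0 (3.80, SE 0.528, 0.000445). Col5a2, the partner of Col5a1, was 199 and 178 against 27.4 and 10.7 (3.16, SE 0.543, 0.00237), and Col6a2 was 20.3 and 29.4 against 0 and 4.27 (2.31, SE 0.341, 0.000736). In these 4 genes both double knockout libraries lay above both wild type libraries and the call held whichever library was left out. For Col1a2, Col3a1 and Col6a2, though, the wild type values lie under 10, where members cannot be followed at this depth. The Pali wild type was also the lowest line for Col1a2 and Col6a2 at day 0. In the Pali1 knockout, C129 wild type and Aebp2 gene trap Col6a2 was 8.47 to 12.9 and Col1a2 6.15 to 37.3, below the double knockout. Col1a1, at 130 and 87.5 against 13.2 and 13.9, was called too (2.66, 0.00419) and lost without the double knockout replicate 1 (0.0601).

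That replicate is the one whose description names embryoid bodies. Without it the count was 5, without replicate 2 it was 6, and without the Pali wild type replicate 1 it was 6. In the same comparison 2 of 10 fibroblast and mesenchyme markers, 1 of 8 neural and 1 of 7 endothelium markers were higher, 1 of 7 markers of undifferentiated cells was lower, and no endoderm marker was called. The summed fibroblast and mesenchyme markers were 5647 and 7309 in the double knockout against 2466 and 4671. Sums of the other lists did not overlap either. Markers of undifferentiated cells were at 61248 and 58679 against 82668 and 83123, and neural progenitor markers at 2501 and 3722 against 805 and 1708. Endothelium markers were at 1314 and 1191 against 1077 and 583, and endoderm markers at 333 and 402 against 185 and 291. Among the other matrix genes 3 of 11 degrading enzymes were higher, 1 of 18 receptors was higher, no basement membrane partner was called, and of the processing genes 3 were higher and 2 lower. The part of these in the collagen values was not tested. The Pali1 knockout at day 0 had 5 members higher and 0 lower, against 3.04% and 1.75% of all tested genes. These were Col1a2, Col5a2, Col9a2, Col6a2 and Lama4, all but Col9a2 also called higher in the double knockout against the same wild type libraries. Without 1 library the count was 0 to 2: 0 without Pali1 knockout replicate 1, 1 without replicate 2 and 2 without either wild type library.

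The course from day 0 to day 8 differed from that of the Pali wild type for 3 members in the double knockout, all 3 lower, and for no member in the other direction. Over all tested genes 0.694% had a lower and 0.426% a higher course. They were Col1a1, Col1a2 and Col6a2, and Col1a2, with a difference of -4.65 (SE 0.776, adjusted p = 0.00774 by limma), was the one called whichever library was left out. Col1a2 started higher in the double knockout, as given above, and ended at 274 and 280 in the double knockout and at 490 and 431 in the wild type. The Pali1 knockout course was lower for 4 members and higher for 0, where 3.02% of all tested genes were lower and 2.7% higher. Among them Col9a2, a chain of a collagen that coats cartilage fibrils, went from 579 and 611 to 239 and 175, while the wild type went from 299 and 181 to 465 and 323 (-2.25, adjusted p = 0.00477 by limma, and at most 0.0327 without 1 library). Col6a2 differed as well (-2.44, adjusted p = 0.00825 by limma), a call that held whichever library was left out. Its wild type values at day 0 were 0 and 4.27, again under 10.

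At days 4 and 8 the Pali mutants differed from their wild type in few members. At day 4 the Pali1 knockout had 1 higher and 0 lower (1.07% and 1.6% of all genes) and the double knockout 1 higher and 2 lower (0.987% and 1.08%). The gene called higher was Col3a1 in both, and the 2 lower in the double knockout were Col18a1 and Lamc1. At day 8 the counts were 3 higher and 2 lower in the Pali1 knockout (7.07% and 6.52%) and 2 higher and 1 lower in the double knockout (4.13% and 3.08%). Col2a1, at 5581 and 5972 in the Pali1 knockout against 2429 and 1928, differed by 1.41 (SE 0.344, adjusted p = 0.0105 by limma), a call lost without the replicate 2 of either line (0.0932 and 0.0781). None of these day 4 and day 8 calls held in every fit that left out 1 library. One of the 2 control libraries at each day is the one high in endoderm markers. At day 8 summed markers of undifferentiated cells were 47774 and 38904 in the wild type, 27184 and 22418 in the Pali1 knockout and 29625 and 28595 in the double knockout. Neural progenitor markers were 4589 and 3747, 8963 and 10304, and 9137 and 8200. The part of these in the members' values was not tested.

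The Aebp2 gene trap differed most at day 8, where 10 members were lower than in the C129 wild type and 3 higher, against 10.6% and 9.59% of all tested genes. The median difference of the 47 members was -0.67 beside -0.01 for all genes. The lower ones included both main chains of type IV collagen. Col4a1 was 2705 and 2546 against 9278 and 9107 (-1.81, SE 0.421, adjusted p = 0.00495 by limma), and Col4a2 was 1009 and 966 against 3901 and 5003 (-2.16, SE 0.479, 0.00349). Lama1 was 335 and 246 against 1394 and 1328 (-2.23, SE 0.385, 0.000499), and Col2a1 was 846 and 1151 against 2571 and 3735 (-1.65, SE 0.344, 0.00223). For each of these 4 genes both gene trap libraries lay below both wild type libraries, and the call held whichever library was left out (adjusted p of at most 0.0412 by limma). Lamb2 was lower as well (742 and 928 against 1112 and 1586, -0.68, 0.00794), a call lost without C129 replicate 2 (0.156) or gene trap replicate 1 (0.125).

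Col6a5 was higher in the gene trap at day 8, at 49.4 and 41.8 against 3.78 and 8.73 (2.31, SE 0.418, adjusted p = 0.000697 by limma). Without single libraries the count of 13 was 7 to 12, with 7 without gene trap replicate 1 and 8 without C129 replicate 2. In this comparison 5 of 16 endoderm markers were lower and 0 higher. Their sums were 2226 and 1857 in the gene trap against 5740 and 7233. Of 8 neural progenitor markers 6 were lower, of 7 markers of undifferentiated cells 6 were higher (45444 and 43029 against 21460 and 15029), and of 10 fibroblast and mesenchyme markers 4 were lower. Of the 17 basement membrane and matrix partners 7 were lower and 4 higher, of the 28 processing genes 6 lower and 4 higher, of the 18 receptors 2 lower and 4 higher, and of the 11 degrading enzymes 6 lower and 1 higher. The part of the marker differences in the members' values was not tested.

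**Figure D5:**
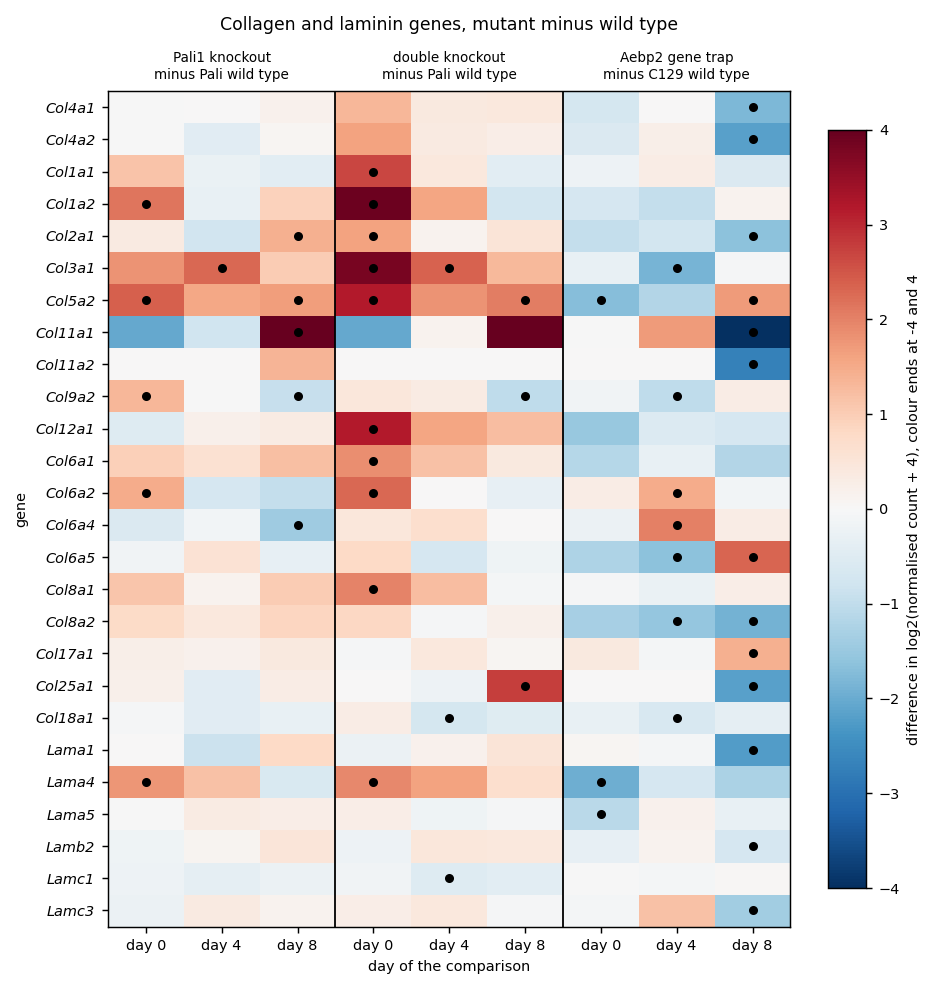
Difference of each mutant from its wild type at each day (columns, on the scale of log2 of the normalised count plus 4, colour limited to the range from -4 to 4) for the 26 members called in at least 1 of these 9 comparisons, with a dot where the limma adjusted p is under 0.05. The double knockout column of day 0 holds 10 dots, all higher, and the Aebp2 gene trap column of day 8 holds 13 dots, 10 of them lower.

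At day 0 the Aebp2 gene trap had 3 members lower and 0 higher, against 7.78% and 5.23% of all tested genes. Lama5 was 3226 and 3049 against 7370 and 6071 (-1.09, SE 0.194, adjusted p = 0.00124 by limma, at most 0.029 without 1 library). At day 4, when Lama5 was 8947 and 8584 against 8773 and 7004, it was not called. Without gene trap replicate 1 the day 0 count was 7, and without C129 replicate 1 or gene trap replicate 2 it was 1. At day 4 the gene trap had 5 members lower and 2 higher (4.96% and 4.05%), and without 1 library the count was 1 to 5: 1 without C129 replicate 1 or gene trap replicate 1, and 3 without gene trap replicate 2.

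The day 8 course of the Aebp2 gene trap differed from that of the C129 wild type for 8.51% of the 47 tested members, lower for 2 and higher for 2. Over all tested genes 6.61% had a lower and 8.66% a higher course, so members differed no more often than other genes. Lama1 had a lower course (-2.29, SE 0.544, adjusted p = 0.00874 by limma). Col6a5 (3.53, 0.00077) and Col5a2 (3.40, SE 0.767, 0.00619) had higher courses, Col5a2 from 37.3 and 6.15 to 295 and 202 in the gene trap and from 66.7 and 58.0 to 41.6 and 122 in the wild type. These 3 calls held whichever library was left out. For Col4a1 and Col4a2 the difference of the courses was not called (for Col4a2 -1.59, adjusted p = 0.13 by limma), so their lower day 8 level is shown for that day and not for the change from day 0.

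The courses of the 2 wild type lines differed for 6 of the 47 tested members (12.8%) and for 2231 of all 15712 tested genes. Members thus differed no more often than other genes. From day 0 to day 8, the course was higher in the C129 than in the Pali wild type for 3 members and lower for 3, against 5.87% and 8.32% of all tested genes. Col12a1, a collagen on the surface of fibrils, went from 37.7 and 39.1 to 42.5 and 65.4 in the C129 wild type and from 0 and 4.27 to 89.3 and 57.8 in the Pali wild type (-3.30, adjusted p = 0.00897 by limma). Col6a5 fell to 3.78 and 8.73 in the C129 wild type, while the Pali wild type ended at 53.2 and 63.3 (-2.79, 0.00403). Both calls held whichever library was left out. The Lamb2 course was higher in the C129 wild type, at 0.62 against -0.13 in the Pali wild type (a difference of 0.75, adjusted p = 0.0453 by limma), a call lost without replicate 2 of any of the 4 groups (0.168 to 0.235). The count of 6 fell to 3 without Pali wild type day 0 replicate 2, C129 day 0 replicate 1 or C129 day 8 replicate 2, and to 4 without either Pali wild type day 8 library.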

How the data were processed

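RNA was measured in 30 libraries, 2 for each of 15 groups of mouse line and day. The authors deposited normalised counts per gene symbol, treated here as a signal with fractional values and a floor at 0. The submitters' processing notes list DESeq2, HISAT2 2.0.5, kallisto 0.43.1 and mm10 with no role for each, and the sources used here do not give the annotation behind the gene totals. Per the labels' protocols, ribosomal RNA was depleted and libraries were strand-marked. Between libraries, whole reads could not be recovered from the deposited signal, since only part of the low values are whole multiples, within 0.001, of the value of 1 read, so no count model was used. That value gave the estimated depth. Every column of the table was assigned to a sample by its name.

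The 15712 genes that reached 10 in 2 libraries or more were fitted with limma 3.58.1 in R 4.3.3 on log2(value + 4), with trend and robust empirical Bayes over all 15 groups (15 residual degrees of freedom). The 23 comparisons were adjusted by Benjamini-Hochberg over all tested genes, each on its own, at a threshold of 0.05. The fit was tested on simulated data. Tables were joined with Python 3.11.15, pandas 2.3.3 and numpy 2.4.6. Ratios between genes were taken per 1000 bases of the longest coding transcript of each gene in GENCODE M21, which need not be the transcript present. Promoter windows came from RefSeq (GRCm38.p6) and gene positions from GENCODE M21 (GRCm38).

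The members and lists were chosen with earlier results of these data known. Genes named with tests were the laminin-111 chains, Lama5, Lamb2, Col4a1, Col4a2, Col1a1, Col1a2, Col3a1, Col18a1, Col6a1 and Col6a2, and for each comparison up to 3 members per direction with the lowest adjusted p among those called with a mean of at least 50 over the 30 libraries. Other members described were chosen after their values were seen. P-values measure only the spread between duplicates, pooled over all groups, since nothing says whether clones or differentiations were separate. A group whose duplicates disagree thus gets the same error as one whose duplicates are close. The alternatives were pseudocounts of 1 and 16, no filter, a filter on a mean of 50, other scalings, fits on lines of the same parent only, a replicate block, and each library left out. After the data were seen, 2 were added: a fit without genes whose duplicates disagree and one without the 2 double knockout libraries with crossed descriptions. The values of 1 member are not reported here.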

Additional observations from a re-analysis of the deposited data

Results flagged for a closer look

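In 14 cases the change of a member from day 0 to day 8 differed between a mutant and its wild type, or between the 2 wild types, by limma's test of that difference (adjusted over all 15712 tested genes). Cases in which a group is listed at 0 in both libraries were left out. In the Pali1 knockout against the Pali wild type these were Col5a3 (-1.81, adjusted p = 0.0185), Col9a2 (-2.25, 0.00477), Col6a2 (-2.44, 0.00825) and Lama4 (-2.36, 0.0482). In the double knockout against the same wild type they were Col1a1 (-3.07, adjusted p = 0.042 by limma), Col1a2 (-4.65, 0.00774) and Col6a2 (-2.64, 0.0133). In the Aebp2 gene trap against the C129 wild type they were Col5a2 (3.40, adjusted p = 0.00619 by limma), Col6a5 (3.53, 0.00077) and Lama1 (-2.29, 0.00874). In the C129 against the Pali wild type they were Col12a1 (-3.30, adjusted p = 0.00897 by limma), Col6a4 (-1.94, 0.0497), Col6a5 (-2.79, 0.00403) and Lamb2 (0.75, 0.0453).

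Among the cases that rest on single libraries, Col5a3 was lost without Pali wild type day 0 replicate 2 (adjusted p = 0.0733 by limma), Pali wild type day 8 replicate 2 (0.0645), Pali1 knockout day 0 replicate 1 (0.0965) or day 8 replicate 2 (0.0611). Col1a1 in the double knockout was lost without any 1 of the 8 libraries but Pali wild type day 8 replicate 1, with adjusted p of 0.0588 to 0.193. Col6a2 in the double knockout was lost without Pali wild type day 8 replicate 2 (0.0516), double knockout day 0 replicate 2 (0.0512) or day 8 replicate 1 (0.0538). Lama4 was lost without either Pali wild type day 0 library (0.157 and 0.0543), Pali wild type day 8 replicate 2 (0.182), Pali1 knockout day 0 replicate 1 (0.186) or day 8 replicate 2 (0.218), and Col6a4 without any 1 of the 8 libraries (0.0545 to 0.175). In the Pali1 and double knockout cases the wild type libraries are the same, so the Col6a2 values of the 2 mutants are not independent. At day 0 these wild type libraries had 0 and 4.27 for Col6a2 and 1.10 and 3.21 for Col1a2, under a normalised count of 10.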

How the results depend on the processing

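Leaving out 1 library at a time, the counts of members called at day 4 ran from 11 to 16 in the Pali wild type, 9 to 12 in the Pali1 knockout, 6 to 14 in the double knockout, 6 to 11 in the C129 wild type and 8 to 11 in the Aebp2 gene trap. At day 8 they ran from 11 to 15, 12 to 20, 13 to 15, 17 to 22 and 10 to 18. Against the wild type they ran, for days 0, 4 and 8, from 0 to 2, 0 to 2 and 0 to 4 in the Pali1 knockout, from 5 to 11, 0 to 1 and 0 to 1 in the double knockout, and from 1 to 7, 1 to 5 and 7 to 12 in the Aebp2 gene trap. The counts of courses that differed ran from 2 to 5, 1 to 4 and 3 to 4 in these mutants, and from 3 to 6 between the wild types. Of 153 calls of named members 87 held in every such fit and 118 in every other alternative. None changed direction.

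Of 234 other counts 205 stayed within 1.5 times. With a filter on a mean of 50, which tests fewer members, the counts were 9, 6 and 6 at day 4 in the Pali wild type, C129 wild type and Aebp2 gene trap, and 9, 15, 14 and 12 at day 8 in the Pali wild type, Pali1 knockout, double knockout and C129 wild type. With that filter they were 3, 0 and 3 in the Pali1 knockout against its wild type at days 0, 4 and 8, 4 in the double knockout at day 0, 4 and 8 in the Aebp2 gene trap at days 4 and 8, and 2 and 2 for the courses of the Pali1 knockout and of the C129 against the Pali wild type. For the Pali1 knockout against its wild type the counts were 3, 0 and 8 with a pseudocount of 16, and at day 8 they were 3 with a pseudocount of 1, 1 with no filter and 3 in the fit on lines of the same parent only. In that fit the Aebp2 gene trap at day 4 had 2. For the double knockout at day 8 the count was 6 with a pseudocount of 16, 5 with upper-quartile scaling and 5 without genes whose duplicates disagree. Without the 2 libraries with crossed descriptions, which leaves fewer samples, it was 6 for the double knockout at day 4 against day 0, and 6 and 0 against its wild type at days 0 and 4. Where no such reason is given, the cause was not tested. With the replicate number as a block (replicate block) the double knockout at day 8 had 5 where it had 3 without. Over 105 pairs of groups the correlation of deviations between replicates ran from -0.0785 to 0.109 (median 0.0227). A correlation over all genes cannot show whether some genes share a replicate effect. With the block more genes were called in every comparison, for example 4564 in place of 4296 at day 4 in the Pali wild type. Rescaling moved the median of all genes by -0.061 to 0.049. Members under a normalised count of about 10 cannot be followed at this depth.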
